A study of Mus musculus with 3 samples.

Results

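The skeletal myosin heavy chains are the motor proteins of the thick filament of striated muscle, and 6 of their genes, Myh3, Myh8, Myh2, Myh1, Myh4 and Myh7, were chosen by name from the 32285 features of the count tables. They were measured by droplet single-cell RNA sequencing of tibialis anterior muscle taken 4 days after damage with BaCl2, a salt that kills muscle fibres and lets the muscle rebuild from its stem cells. The 3 groups were young mice given PBS, old mice given PBS and old mice given rMETRNL (recombinant Meteorin-like protein), all damaged in the same way. All were of the C57/BL6J strain per the study's methods, and the study's results give the route of rMETRNL as intramuscular. Each group is 1 library made from the pooled muscles of several mice, so no difference between groups can be tested here, and age or treatment cannot be told apart from the pool. The muscle was digested and strained to a suspension of single cells, a step that intact multinucleated fibres largely do not survive. All intervals are 95%, cover counting error only, and do not include the spread between mice.

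Muscle swaps its heavy chains as it forms. Myh3 encodes the embryonic and Myh8 the perinatal (neonatal) chain, which are made in development, are largely lost from adult limb muscle and return for a time in newly formed fibres after injury. In adult muscle each fibre type is named for its chain: Myh2 is the fast IIa, Myh1 the fast IIx, Myh4 the fast IIb and Myh7 the slow (type I) chain, and the mouse tibialis anterior is a mostly fast muscle.

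Of the 6 genes, 5 lie head to tail on the plus strand of chromosome 11 (GRCm38): Myh3 (ENSMUSG00000020908) at 67078300 to 67102291, Myh2 (ENSMUSG00000033196) at 67171027 to 67197517, Myh1 (ENSMUSG00000056328) at 67200052 to 67224575, Myh4 (ENSMUSG00000057003) at 67238029 to 67260446 and Myh8 (ENSMUSG00000055775) at 67277124 to 67308634. They are the only 5 protein-coding genes in those 230335 bases. Myh7 (ENSMUSG00000053093) is on the minus strand of chromosome 14 at 54970684 to 54994626. The 6 symbols all matched the RefSeq promoter table (GRCm38.p6), and the letters before their start sites divide them. The promoters of the 3 fast chains and of Myh8 share a run of 14 bases, TTCTAATTATATCC, whereas that of Myh3, their neighbour, does not hold it. The run was found by comparing these promoters, so that all 4 hold it is no test. It occurs in 4 of the 32851 windows of 250 bases before a start site in the table (0.0122%, both strands searched), all belonging to these 4 genes. Below are 100 bases of each, 5′ to 3′ on the plus strand, with the run in capitals, and then the 250 bases of Myh3 with its matches to CANNTG (the E-box that myogenic regulators can bind) and to TATAAA in capitals.

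Myh8, chr11:67277000-67277099: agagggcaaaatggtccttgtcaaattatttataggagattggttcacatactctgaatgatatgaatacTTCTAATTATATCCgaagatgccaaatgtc
Myh2, chr11:67170832-67170931: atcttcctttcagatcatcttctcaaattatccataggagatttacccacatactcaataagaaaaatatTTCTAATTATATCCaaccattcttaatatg
Myh1, chr11:67199872-67199971: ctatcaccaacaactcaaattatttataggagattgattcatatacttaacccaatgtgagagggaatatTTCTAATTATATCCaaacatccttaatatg
Myh4, chr11:67237584-67237683: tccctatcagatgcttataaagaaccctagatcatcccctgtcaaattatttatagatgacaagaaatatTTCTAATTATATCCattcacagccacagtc
Myh3, chr11:67078050-67078299: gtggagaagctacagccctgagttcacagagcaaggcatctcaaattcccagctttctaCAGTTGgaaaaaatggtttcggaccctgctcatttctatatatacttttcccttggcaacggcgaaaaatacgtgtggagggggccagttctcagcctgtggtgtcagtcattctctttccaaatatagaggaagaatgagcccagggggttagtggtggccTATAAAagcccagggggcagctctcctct

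The run began 54 bases before the RefSeq start of Myh8, 125 before Myh2, 160 before Myh1 and 158 before Myh4, distances that depend on the start annotated. The longest run that Myh1 shared was 22 bases with Myh8, 21 with Myh2 and 20 with Myh4, against 10 with Myh3. CANNTG stands in 66.2% of all windows, and matched 1 place in Myh3, 1 in Myh8, 2 in Myh4, 2 in Myh7 and none in Myh2 or Myh1. TATAAA, on either strand, stands in 12.4% of all windows and matched 1 place in Myh3, 1 in Myh8, 2 in Myh1, 3 in Myh4 and none in Myh2 or Myh7. No match to either overlapped the 14-base run. The transcripts also resemble each other, which bears on the counts. Of all stretches of 50 bases in the last 500 of the transcript, 15.96% in Myh2, 15.96% in Myh1, 7.54% in Myh4 and 1.33% in Myh8 occur in another of the 6, and 0% in Myh3 and Myh7. Over the whole transcript the shares were 26.7% in Myh2, 26.1% in Myh1, 19.9% in Myh8, 18.6% in Myh4, 3.66% in Myh3 and 0.210% in Myh7, and which end of the transcript was read is not given in the sources used here. Reads from such stretches cannot be told apart, so low counts of one fast chain beside high counts of another are uncertain. The 6 transcripts differ little in length (6016 to 6230 bases), and a UMI (a tag that marks 1 captured molecule) is counted once whatever the length.

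The libraries held 12168, 12568 and 14012 barcodes and 218059089, 179295668 and 228966697 UMIs. Every list of 3 values is in this order of groups: young PBS first, then old PBS, and old rMETRNL last. After filters 10318, 10029 and 11451 cells stayed, with a median of 15140.5, 13692 and 14492 UMIs. Between 58 and 80 barcodes were shared by each pair of libraries, under 1% of either. Cells were grouped without the 6 genes into 22 clusters, of which 12 classes could be named from markers. The heavy chains gave 7712, 13617 and 7053 UMIs in kept cells. Levels are given as CPM, the UMIs of a gene per 1000000 UMIs of all genes, taken over all cells of a class in a library.

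Of the 3 myogenic classes, MuSC/myoblast-like cells (muscle stem cells and their dividing progeny) numbered 317, 161 and 333, myocyte-like cells (differentiating cells that fuse) 84, 22 and 46 and fibre-like barcodes 32, 431 and 128. Of the fibre markers 14 of 14 were highest in their own class among the 3 and the macrophage/monocyte-like cells, as were 10 of 12 myocyte and 8 of 12 MuSC/myoblast markers. These markers also named the classes, so this is no independent check. Of the MuSC/myoblast markers, Des was highest in fibre-like barcodes and Myod1 and Megf10 in myocyte-like cells. Sdc4 was highest in macrophage/monocyte-like cells in young and old PBS. The libraries stood apart in these numbers. As a share of kept cells, old PBS over young PBS was 0.523 (0.430 to 0.634) for MuSC/myoblast-like, 0.269 (0.160 to 0.435) for myocyte-like and 13.9 (9.67 to 20.5) for fibre-like barcodes, and old rMETRNL over old PBS was 1.81 (1.50 to 2.20), 1.83 (1.08 to 3.20) and 0.260 (0.212 to 0.318). Fibre-like barcodes were shallow, with a median of 3012, 2073 and 2246 UMIs against 38802, 45411 and 31785 in myocyte-like cells. They also carried RNA of other cells: the 12 macrophage/monocyte markers summed to 716, 965 and 831 CPM, with Adgre1, Csf1r and Ccr2 at 0 in young PBS. The 6 erythroid markers summed to 104, 7847 and 134 CPM there, with 3, 6 and 4 of them detected. The part of these in the values of that class was not tested. Because the myocyte-like class has 22 cells in old PBS and the fibre-like class 32 in young PBS, values there rest on few cells.

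Myh3, the embryonic chain, was highest in the myocyte-like cells. Its level there was 1493 (1453 to 1535), 1738 (1655 to 1824) and 1554 (1497 to 1613) CPM, from 5209, 1639 and 2805 UMIs. All 3 libraries lay within a narrow range, and none of the other 11 classes came near it. Fibre-like barcodes held 37.3, 10.04 and 18.2 CPM and MuSC/myoblast-like cells 15.2, 6.59 and 4.51 CPM, and these ranges overlapped. Every other class was at or below 3.27 CPM, a value that is 1 UMI in glial-like cells. Macrophage/monocyte-like cells, which should lack the gene and show what free RNA gives, held 2.13, 1.41 and 1.07 CPM. MuSC/myoblast-like cells were above that level in each library.

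Myh8, the perinatal chain, was also highest in the myocyte-like class, at a lower level than Myh3. It stood at 155 (142 to 168), 99.7 (80.5 to 122) and 72.04 (60.2 to 85.5) CPM, from 540, 94 and 130 UMIs. The order was young PBS, old PBS, old rMETRNL, and the last pair of intervals overlapped. The single highest cell of each library held 165, 72 and 77 of those UMIs, so the order of the old pair rests on single cells. Fibre-like barcodes came next with 0, 5.74 and 9.08 CPM, from 0, 8 and 4 UMIs, and 0 UMIs in young PBS allows a level of up to 22.4 CPM. MuSC/myoblast-like cells held 1, 0 and 1 UMIs, which is no more than the 0.253, 0.239 and 0.187 CPM of macrophage/monocyte-like cells, so Myh8 was not detectable above background in them.

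The 3 adult fast chains were highest in fibre-like barcodes. Myh4, the IIb chain, stood at 1908 (1682 to 2157), 5006 (4889.7 to 5125) and 5014 (4807 to 5227) CPM. The level in young PBS was below both old libraries, whose intervals overlapped. Myocyte-like cells held 55.3, 6.36 and 69.3 CPM from 193, 6 and 125 UMIs, low in old PBS, and overlapped the range of glial-like cells (2.79 to 68.6 CPM, 23 UMIs in all). Macrophage/monocyte-like cells held 0.558, 5.68 and 2.03 CPM, in the same order of libraries as the share of fibre-like barcodes.

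Myh1, the IIx chain, was second in fibre-like barcodes at 1454 (1257 to 1673), 1203 (1146 to 1262) and 1600.2 (1484 to 1723) CPM. Unlike Myh4 it was close in the 3 libraries. It was also the most abundant adult chain of myocyte-like cells, at 91.5 (81.7 to 102.1), 29.7 (19.7 to 42.9) and 108 (92.9 to 124) CPM, where old PBS was lowest. MuSC/myoblast-like cells held 4.43, 2.20 and 2.60 CPM and overlapped pericyte/smooth muscle-like cells (3.40 to 5.34 CPM, 9 UMIs).

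Myh2, the IIa chain, was rare. Fibre-like barcodes held 59.6, 113 and 107 CPM from 8, 158 and 47 UMIs. In old PBS, 128 of those UMIs came from 1 barcode, and without it the level was 21.8 CPM. Myocyte-like cells held 1, 0 and 1 UMIs and MuSC/myoblast-like cells none in any library. Pericyte/smooth muscle-like cells were second, at 1.15 to 6.80 CPM from 8 UMIs.

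Myh7, the slow chain, gave 18, 6 and 3 UMIs in all kept cells. Fibre-like barcodes held none in any library, which allows up to 22.4, 2.15 and 6.81 CPM. Young PBS myocyte-like cells held 8 UMIs, 5 of them in 1 cell. In MuSC/myoblast-like cells it was 1 UMI, and FAP-like cells (fibro/adipogenic progenitors) held 11. At these counts the classes could not be ordered.

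**Figure D1:**
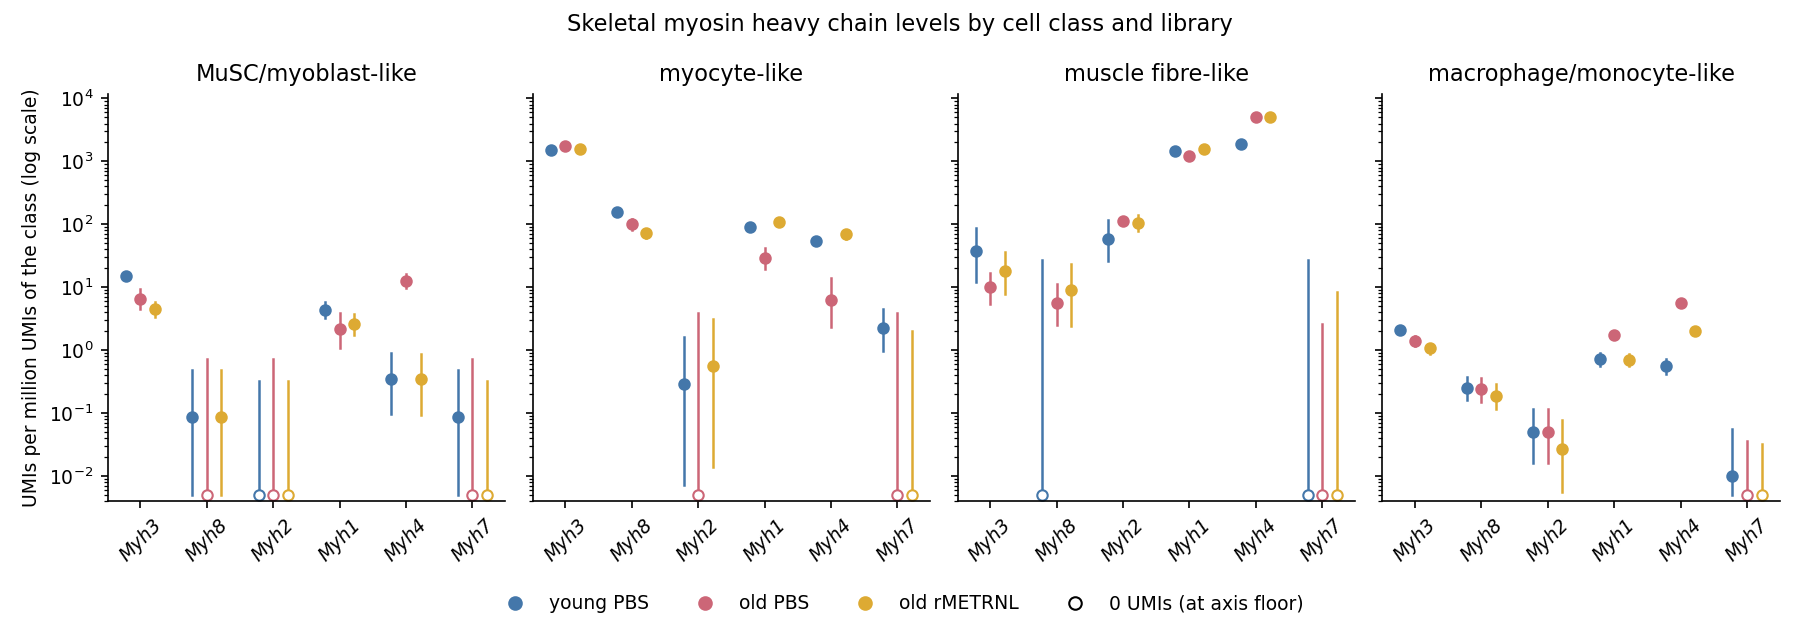
Level of each heavy chain (CPM, log scale) in the 3 myogenic classes and in macrophage/monocyte-like cells, 1 point per library with its 95% counting interval and open points for 0 UMIs. Myh3 stands at 1493 to 1738 CPM in myocyte-like cells and Myh4 at 1908 to 5014 CPM in fibre-like barcodes.

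The share of the 6 genes' UMIs that came from Myh3 and Myh8, the developmental share, puts these patterns on 1 scale. Over the 3 myogenic classes together it was 85.1% (84.3 to 85.96), 16.7% (15.99 to 17.4) and 47.5% (46.3 to 48.7). The libraries were far apart on this measure. Within myocyte-like cells it was 91.7% (90.98 to 92.4), 98.1% (97.3 to 98.7) and 90.2% (89.1 to 91.2), near the top of the scale in each. Within fibre-like barcodes it was 1.08%, 0.249% and 0.404%, near the bottom. MuSC/myoblast-like cells were between, at 75.9%, 30.8% and 60.9%. The old PBS value there rests on 107 UMIs, of which 38 came from 1 cell, and was 47.8% without it. Leaving the fibre-like class out, an alternative chosen after seeing the data, gave 91.1%, 94.2% and 89.4%. The old PBS value of the pooled share was thus no longer far below the others. Without the cell with the most heavy chain UMIs of each library these were 92%, 91.9% and 92.2%, so their order turned on single cells. Macrophage/monocyte-like cells showed 64.03%, 18.1% and 31.3%, the order of the pooled value.

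**Figure D2:**
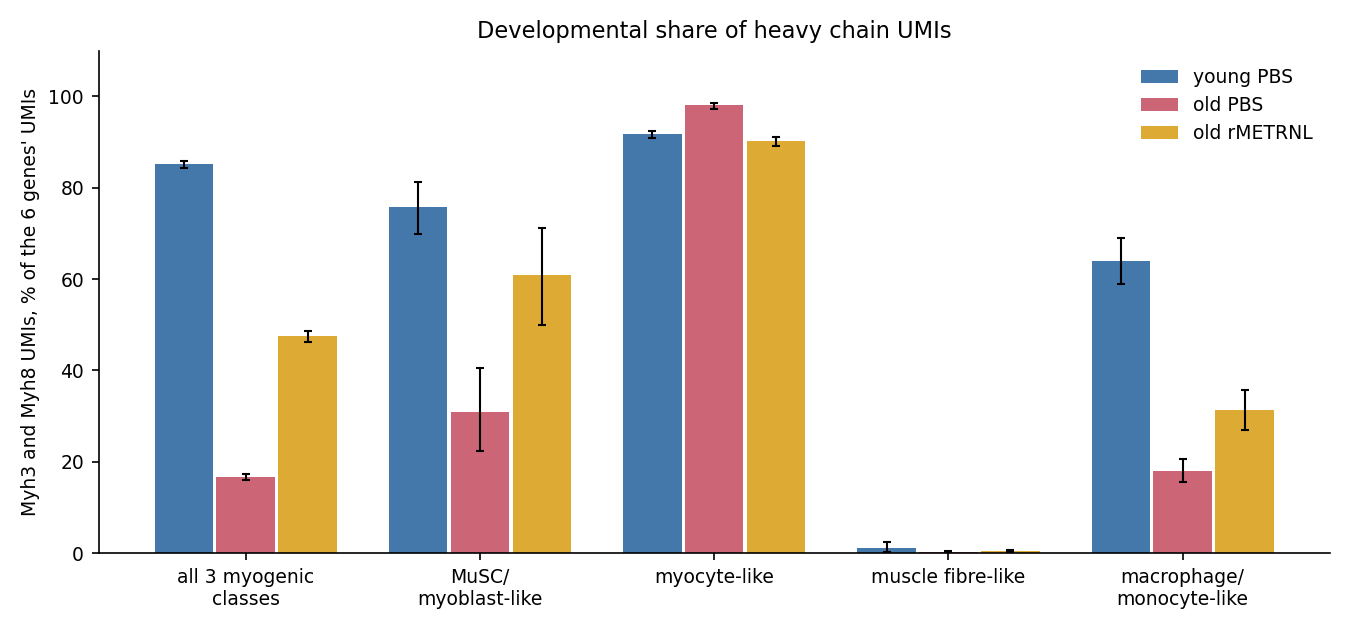
Myh3 and Myh8 UMIs as a percentage of the UMIs of the 6 heavy chains, by class and library, with exact 95% binomial intervals. The pooled myogenic bars run from 16.7% to 85.1%, whereas the myocyte-like bars all lie at or above 90.2%.

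Age and treatment were compared in the myogenic classes together, in which a ratio of at least 2 or at most 0.5 counts as called among genes with at least 50 UMIs in the pair of libraries. Both comparisons use the old PBS library. Myh3 stood at 361, 229.6 and 208 CPM, Myh8 at 36.3, 13.9 and 9.80, Myh2 at 0.603, 21.5 and 3.49, Myh1 at 37.8, 234 and 67.5 and Myh4 at 30.4, 960.4 and 169.8. Myh7 had 9, 0 and 0 UMIs and was not measured. The developmental chains were highest in young PBS and the 3 adult fast chains in old PBS. Of the 5 measured members, 3 (Myh2, Myh1 and Myh4) were called higher in old than in young PBS, where 3.91% of all genes were, and 1 (Myh8) was called lower, where 1.3% were. The old over young ratios were 31.6 (28.8 to 34.9) for Myh4, 35.7 (18.3 to 79.4) for Myh2, 6.18 (5.62 to 6.81) for Myh1, 0.636 (0.602 to 0.672) for Myh3 and 0.383 (0.307 to 0.474) for Myh8. Summed, the developmental chains had a ratio of 0.613 (0.581 to 0.646) and the adult chains 17.5 (16.4 to 18.7). Without the top cell of each library the Myh2 ratio was 10.2, and with cells gated by markers in place of clusters old PBS held no Myh2 UMI, a ratio of 0. The Myh8 call was lost with that gate, at 1.17, at the coarser clustering resolution of 0.4, at 1.05, and with a looser filter on cells, at 0.973, and held at the finer resolution of 1.6, at 0.386, and with the heavy chains kept in clustering, at 0.384. The developmental ratio was 1.06 with the gate.

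Between old rMETRNL and old PBS, no member was called higher (background 0.679%) and 3, again Myh2, Myh1 and Myh4, were called lower (background 3.53%). The ratios were 0.162 (0.115 to 0.225) for Myh2, 0.177 (0.169 to 0.185) for Myh4, 0.288 (0.266 to 0.313) for Myh1, 0.706 (0.542 to 0.922) for Myh8 and 0.906 (0.853 to 0.963) for Myh3. Without the top cell of each library the Myh2 ratio was 0.514, no longer called, and those of Myh3 and Myh8 were 1.003 and 1.03, while Myh4 was at 0.157 and Myh1 at 0.280. The summed adult ratio was 0.198 (0.190 to 0.206) and the summed developmental ratio 0.895 (0.843 to 0.949). The developmental ratio passed to the other side of 1 with a stricter filter on cells, at 2.56, and as a mean over cells, at 1.70. It was further below 1 with cells gated by markers, at 0.517, and with the unnamed sub-clusters counted, at 0.588. The adult direction depended on the fibre-like class in both comparisons. With that class left out the adult ratio was 0.466 for age and 1.46 for treatment, on the other side of 1. By gene, Myh1 was then at 0.263 and 2.56, and Myh4 at 0.870 and 0.834. The cause of the difference in fibre-like barcodes between libraries was not tested, and in summed RNA the number of cells and the RNA per cell enter together.

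Set directly against young PBS, old rMETRNL had 2 of 5 measured members called higher in the myogenic classes together, Myh2 and Myh4 (background 0.96%), and Myh8 called lower (background 0.681%). The ratios were 5.78 (2.80 to 13.4) for Myh2, 5.59 (5.05 to 6.20) for Myh4 and 0.270 (0.222 to 0.327) for Myh8, or 0.167 without the top cell of each library, with Myh1 at 1.78 (1.605 to 1.98) and Myh3 at 0.576 (0.550 to 0.603). The share of fibre-like barcodes differed between these libraries too, with a ratio of 3.604 (2.43 to 5.49), and with that class left out Myh4 was at 0.726 (0.577 to 0.911), Myh1 at 0.673 (0.568 to 0.797) and the summed adult chains at 0.681 (0.595 to 0.779), on the other side of 1. In myocyte-like cells none of 4 was called higher (background 1.1%) and Myh8 was called lower (background 0.828%), at 0.465 (0.381 to 0.564), while Myh1 stood at 1.18 (0.978 to 1.41), Myh4 at 1.25 (0.991 to 1.58) and Myh3 at 1.04 (0.994 to 1.09). The intervals of the last 3 held 1. Without the top cell of each library these were 0.275 for Myh8, 0.959 for Myh1, 0.657 for Myh4 and 0.935 for Myh3, so the last 3 passed to the other side of 1. In MuSC/myoblast-like cells, of 2 measured, none was called higher (background 0.411%) and Myh3 was called lower (background 0.32%), at 0.296 (0.213 to 0.406). In fibre-like barcodes, of 3 measured, Myh4 was called higher (background 2.06%), at 2.63 (2.31 to 3.002), and none lower (background 0.858%).

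Within myocyte-like cells Myh1 ran the other way. Of 4 measured members, none was called higher in old than in young PBS (background 1.17%) and Myh1 and Myh4 were called lower (background 1.77%), at 0.325 (0.212 to 0.478) and 0.115 (0.0417 to 0.255). Old rMETRNL over old PBS, the same 2 were called higher (background 1.85%), at 3.62 (2.43 to 5.59) and 10.9 (4.86 to 30.2), and none lower (background 0.861%). These comparisons share the 28 Myh1 and 6 Myh4 UMIs of the 22 old PBS cells, so the same low counts enter both. The 6 Myh4 UMIs are 6.36 (2.33 to 13.8) CPM, against 5.68 CPM in old PBS macrophage/monocyte-like cells, so Myh4 was not detectable above background there and the size of its ratios is not read. Leaving out the cell with the most UMIs of the gene from each library, the age ratios were 0.295 for Myh1 and 0.0822 for Myh4, and the treatment ratios 3.25 and 7.99. The Myh1 values depend on which barcodes are named: 1 unnamed old PBS barcode, described further on, held 142 Myh1 UMIs, more than the 28 of the 22 named cells together.

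Of the developmental chains, Myh3 was closer between libraries in these cells, and Myh8 was so for age only with its top cells counted. Myh3 stood at 1.16 (1.10 to 1.23) for old over young and 0.894 (0.841 to 0.951) for rMETRNL over PBS, and without the top cells 0.934 and 1.001, so its direction with age turned on 1 cell per library. Myh8 had ratios of 0.644 (0.512 to 0.803) and 0.723 (0.550 to 0.953), and without the top cells 0.222 and 1.24, so its treatment direction turned as well. The median Myh3 level per myocyte-like cell was 689.7, 455 and 697 CPM, and single cells ran from 0 to 6546, 11256 and 6458 CPM. The median share of mitochondrial UMIs in these cells was 5.82, 6.57 and 5.42%, and 30, 2 and 21 of them were under 5%.

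In MuSC/myoblast-like cells the counts were small. For age 3 members were measured, of which Myh4 was called higher (background 0.672%) and Myh3 lower (background 0.893%). Myh3 had 172, 33 and 52 UMIs and a ratio of 0.433 (0.289 to 0.631), or 0.492 without the top cells, while the share of cells with a Myh3 UMI was 9.78, 9.94 and 8.11% unthinned. Myh4 had 4, 63 and 4 UMIs, or 0.354, 12.6 and 0.347 CPM, against 0.558, 5.68 and 2.03 CPM in macrophage/monocyte-like cells. In old PBS 38 of its 63 UMIs came from 1 cell, and without that cell its level was 5.02 CPM. A Myh4 UMI was found in 11 of the 161 old PBS cells, and at least 2 UMIs in only 2 cells. Beyond those 2 cells Myh4 was thus seen only as single UMIs, and its calls are not read as expression of the class. For treatment 2 were measured, of which none was called higher (background 0.594%) and Myh4 was called lower (background 0.604%), against the same old PBS count, while Myh3 stood at 0.684 (0.434 to 1.09). Of 13 measured fast fibre partners, Acta1, Ckm and Pvalb were called higher in old than in young PBS in this class and lower with treatment, with Acta1, the skeletal alpha-actin, at 45.8, 229 and 55.3 CPM. The part of free fibre RNA in this was not tested. Of 11 measured myogenic regulators and fusion genes, Myog, Mymk and Mymx were called lower in old than in young PBS, with ratios of 0.390, 0.459 and 0.414, and Myog was called higher with treatment, at 2.13. These 3 genes thus moved with Myh3 in the age comparison. They did not in old rMETRNL over young PBS, where none of the 11 was called in this class and Myh3 was called lower.

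In fibre-like barcodes 3 members were measured. Between old and young PBS Myh4 was called higher, where 7.99% of genes were, with a ratio of 2.62 (2.32 to 2.98), and none was called lower (background 2.11%). Myh1 stood at 0.828 (0.713 to 0.965). For treatment none was called higher (background 0.969%) or lower (background 2.32%), with Myh4 at 1.001 (0.954 to 1.05), Myh1 at 1.33 (1.22 to 1.45) and Myh2 at 0.942 (0.665 to 1.31). Single barcodes weighed on these. Without the top barcode of each library the treatment ratio was 2.94 for Myh2, which would be called higher, 0.868 for Myh4 and 1.24 for Myh1, and the old over young ratio of Myh2 was 0.542 in place of 1.90. The top barcode of old rMETRNL held 430 of its 2209 Myh4 UMIs. The fewer adult UMIs of the old rMETRNL library thus came with fewer fibre-like barcodes (128 against 431), while Myh4 within them stood at 5014 against 5006 CPM, or 4163 against 4797 without the top barcodes.

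The fibre-like barcodes could be read one by one. Of the 591, 431 held at least 5 adult heavy chain UMIs, and in 302 of these (70.1%) at least 80% were Myh4. Myh1 reached 80% in 72 (16.7%), Myh2 in 2 and Myh7 in none. No single gene reached it in 55 (12.8%). The Myh4 share was 45% (23.1 to 68.5) of 20 barcodes, 74.3% (69.2 to 78.96) of 327 and 59.5% (48.3 to 70.1) of 84. Old PBS was highest, above young PBS beyond counting error. In most barcodes 1 fast chain thus made up at least 80%, IIb more often than IIx. The class held 2 sub-clusters, found without the 6 genes, and Myh4 reached 80% in 92.7% of 150 barcodes with at least 5 adult UMIs in the smaller and 58.01% of 281 in the larger, where Myh1 did in 24.6%. A UMI of Myh3 or Myh8 was found in 17 of the 591.

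**Figure D3:**
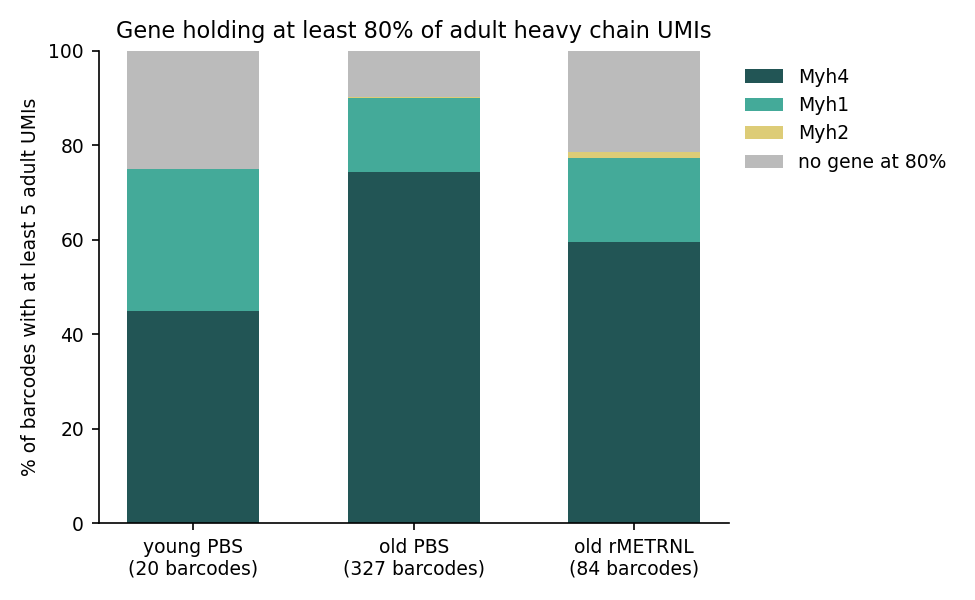
Percentage of fibre-like barcodes with at least 5 adult UMIs in which 1 gene held at least 80% of them, by library (bar height 100% in all). Myh4 was the gene in 45%, 74.3% and 59.5%, of 20, 327 and 84 barcodes.

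Along the myogenic cells ordered by their own Myh3 count, Myh1 stood higher from each bin to the next. The 963 MuSC/myoblast-like and myocyte-like cells of all libraries were split into those with 0, 1 to 9, 10 to 99 and at least 100 Myh3 UMIs, of which there were 754, 117, 66 and 26. Their median depth differed, at 28892, 29579, 47090.5 and 67944 UMIs, and a deeper cell reaches a higher count at the same level. The CPM values here allow for depth but the bins do not, so this is a description. Pax7, the stem cell factor, stood at 94.5, 57.7, 7.95 and 3.87 CPM. Myod1, which commits cells to muscle, was at 145, 275, 618 and 519 and Myog, which drives differentiation, at 107, 943, 2920.5 and 2367 CPM. Mymk, the fusion protein myomaker, was at 33.04, 166, 649 and 1095 CPM. Myog was thus already high at 10 to 99 Myh3 UMIs, and Mymk was highest in the last bin.

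Of the heavy chains, Myh1 stood at 2.61, 12.5, 54.04 and 169.8 CPM, graded over all 4 bins. Myh8 stood at 0.119, 0.555, 9.54 and 354 CPM, from 3, 2, 30 and 731 UMIs, with most of its level in the last bin. The first 2 of these values rest on 3 and 2 UMIs, against a level of 0.253, 0.239 and 0.187 CPM in macrophage/monocyte-like cells, and have no order. Myh4 stood at 2.89, 0.832, 2.23 and 151 CPM, within the range of macrophage/monocyte-like cells before the last bin. In the last bin 97 and 95 of 312 Myh4 UMIs came from 2 cells, without which Myh4 stood at 66.1 CPM, and without the 2 cells highest in Myh8 in each bin that gene stood at 0.0398, 0, 5.23 and 225 CPM. The last bin holds 26 cells, 16, 3 and 7 by library. Acta1 went from 78.5 to 10919 CPM and Ckm, the muscle creatine kinase, from 17.3 to 734.

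**Figure D4:**
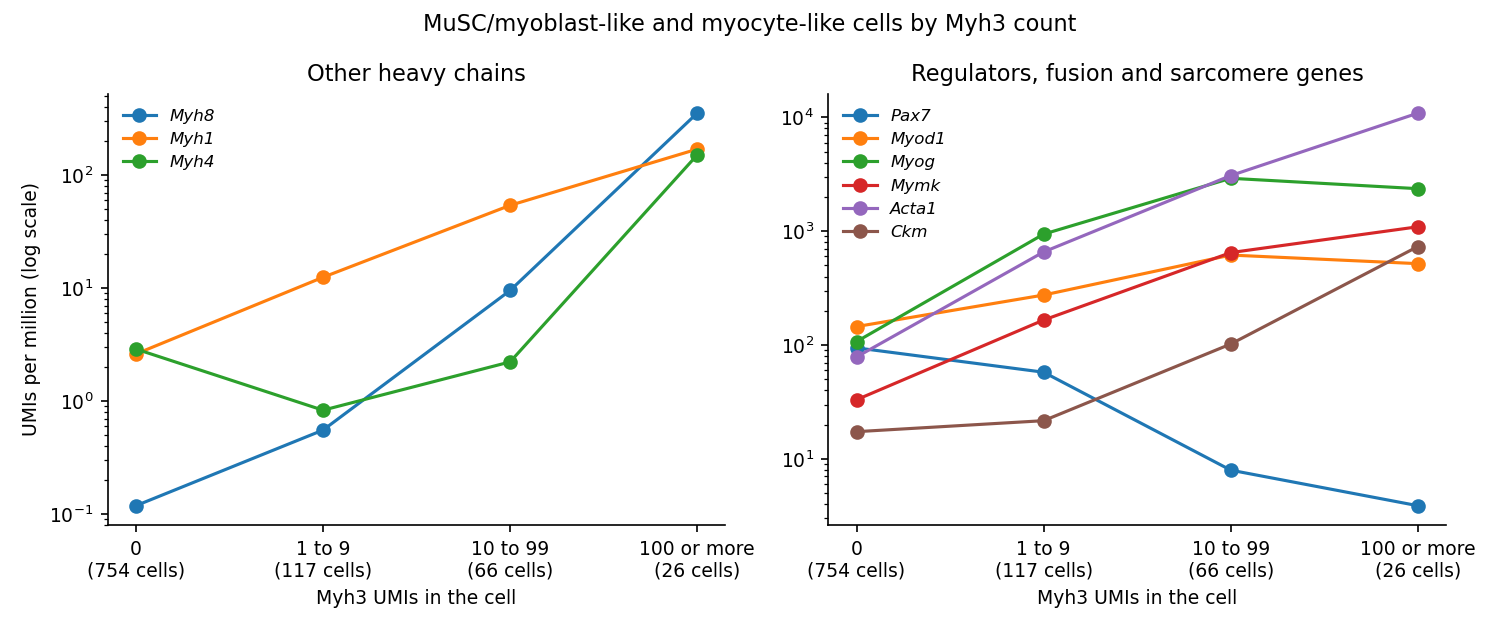
Levels (CPM, log scale) of heavy chains and of myogenic genes in MuSC/myoblast-like and myocyte-like cells of all 3 libraries, grouped by the number of Myh3 UMIs in the cell. Myh1 runs from 2.61 to 169.8 CPM, and Myh8 from 0.119 to 354 CPM with most of it in the last group.

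Some single myocyte-like cells held UMIs of more than 1 chain. Among those with a Myh3 UMI (71, 21 and 43), Myh1 was found in 63.4% (51.1 to 74.5), 42.9% (21.8 to 65.98) and 48.8% (33.3 to 64.5). Myh8 was found in 23.9%, 14.3% and 11.6%, and Myh4 in 19.7%, 14.3% and 13.95%. The intervals of the libraries overlapped for all 3. These shares are unthinned. In macrophage/monocyte-like cells, with a median of 14073, 14642 and 14266 UMIs against 38802, 45411 and 31785, which should lack the chains, a UMI was found for Myh1 in 0.827, 2.35 and 0.972%, Myh8 in 0.382, 0.325 and 0.261% and Myh4 in 0.716, 6.30 and 2.07% of cells. The old PBS Myh4 share, 3 cells, is therefore not read as expression. Of the cells without a Myh3 UMI (13, 1 and 3), 5 in young PBS held Myh1.

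To compare shares of cells at equal depth, each cell was thinned to 1000 UMIs. A Myh3 UMI was then found in 10.2% (7.53 to 13.5), 2.64% (1.52 to 4.26) and 4.77% (3.08 to 7.02) of myogenic cells, with 3, 9 and 4 shallower cells left out. The young PBS share was above both old shares, whose intervals overlapped. Fibre-like barcodes, 32, 431 and 128 of the myogenic cells, had thinned shares of 3.13, 0.948 and 0.794%, so the mix of classes enters the pooled share. Unthinned the shares were 24.2, 7.17 and 14.2%. The same thinned share in macrophage/monocyte-like cells was 0.271, 0.147 and 0.161%, against 2.83, 1.93 and 1.63% unthinned, with a median depth of 14073, 14642 and 14266 UMIs against 30221, 3390 and 22264 in the myogenic cells. By class, thinned in separate random draws whose counts need not add up to the pooled one, it was 42.2% (31.4 to 53.5), 31.8% (13.9 to 54.9) and 48.9% (33.7 to 64.2) of myocyte-like cells, with overlapping intervals. In MuSC/myoblast-like cells it was 0 of 315 in young PBS, which allows up to 0.952%, and 0.621% and 0.301% in the old libraries, 1 cell each. A Myh3 UMI was thus hardly detectable in this class at 1000 UMIs. Unthinned the shares were 9.78, 9.94 and 8.11%, at a median depth of 30838, 27271 and 30946 UMIs.

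The heavy chain UMIs came from few cells. The number of kept cells that held 50% of the Myh3 UMIs was 10, 3 and 3, of Myh8 3, 1 and 2, of Myh1 13, 20 and 10 and of Myh4 6, 59 and 13. Fewer cells thus held the developmental chains in the old libraries, and the most held Myh4 in old PBS. These counts are not scaled to the size of the classes. Myocyte-like cells numbered 84, 22 and 46 and fibre-like barcodes 32, 431 and 128. The single cell with the most Myh3 held 7.97%, 21.8% and 18.7% of a library's Myh3 UMIs. In old PBS this was 1 barcode in a sub-cluster that could not be named: it held 581 Myh3, 178 Myh8 and 142 Myh1 UMIs among 49225, with 1000 UMIs of titin (Ttn) and 331 of Col1a1, a collagen gene of FAPs. That barcode held 57.1% of all Myh8 UMIs of old PBS. Its sub-cluster of 116 barcodes was led by Ttn, Neb and Myog, all muscle genes, against all cells and by the matrix genes Dcn, Aspn and Col1a1 among the myogenic cells. The sub-cluster stood at 1000.4 CPM Myh3 with that barcode and 61.8 without it. Counting the unnamed sub-clusters as myogenic, an alternative chosen after seeing the data, put the age ratio of the developmental chains at 0.901, from 0.613.

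**Figure D5:**
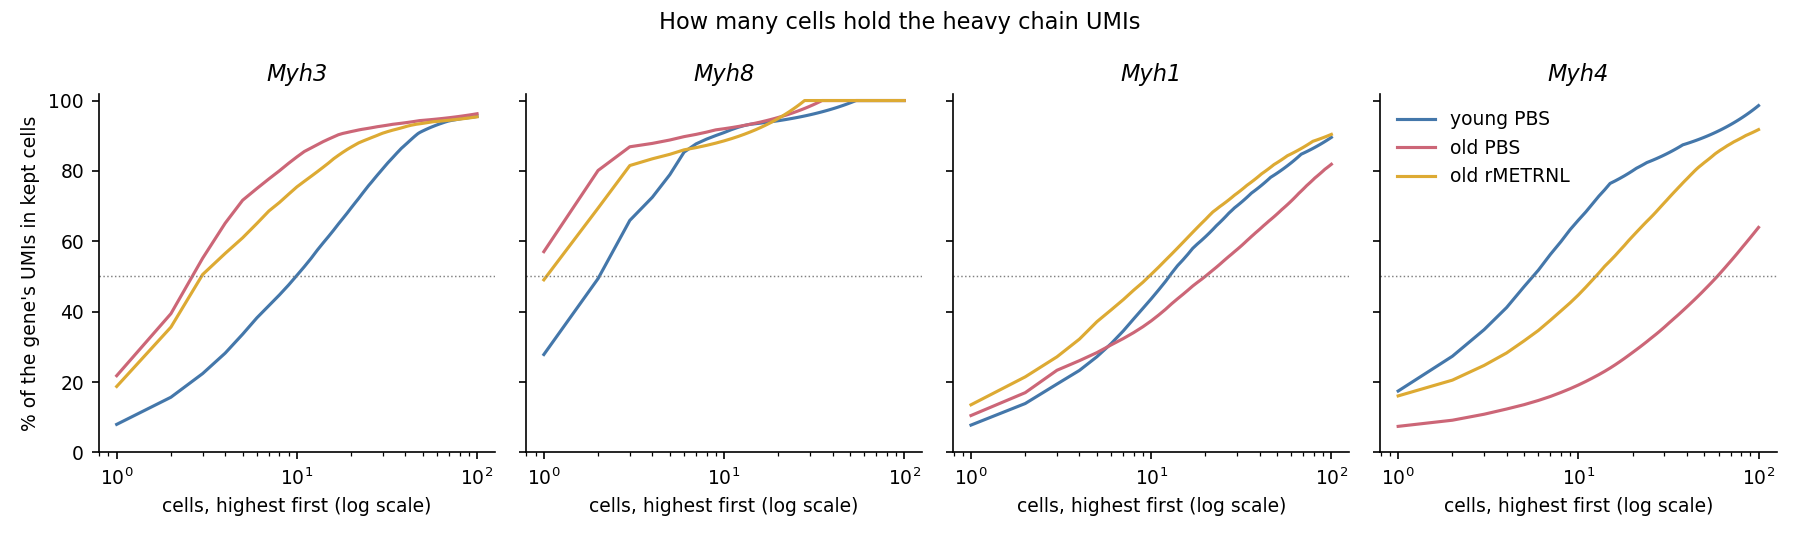
Cumulative percentage of a gene's UMIs in kept cells against the number of cells, from the cell with the most UMIs down (log scale), for Myh3, Myh8, Myh1 and Myh4 in each library, with 50% dotted. Myh8 in old PBS reaches 50% with 1 cell and Myh4 in old PBS with 59.

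Other genes of the contractile and myogenic programme were read as fixed lists in the 3 myogenic classes together, where the median log2 ratio of all measured genes was -0.0768 for age and 0.0852 for treatment. The lists were chosen with earlier results known, so their direction is no independent evidence. Many members were also markers that named the classes, among them Ckm, Mylpf and Tnnt3 for fibre-like and Actc1, Tnnt2, Chrna1 and Myog for myocyte-like. Their levels inside a class are therefore not independent of its naming. Of all measured genes 3.91% were called higher and 1.3% lower for age, and 0.679% and 3.53% for treatment, shares against which each list is to be read. Of 15 fast fibre partners, 14 were called higher in old than in young PBS and none lower (median log2 ratio 2.85), and 14 were called lower in old rMETRNL than in old PBS (median -2.13). Eno3 alone was past the fold in neither. The 3 with the most UMIs were Acta1, Mylpf, a fast regulatory light chain, and Tnnc2, the fast troponin C. In fibre-like barcodes Acta1 stood at 51788, 48586 and 51891 CPM, Mylpf at 43916, 39881 and 37189.9 and Tnnc2 at 31399, 28305 and 28739.6. Inside the class they were close in the 3 libraries, and none of the 15 was called there in either comparison.

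Of 7 developmental partners, none was called in the age comparison (median -0.70) and only Myl6b was called lower with treatment (median -0.40). The leading genes were Chrna1, an acetylcholine receptor subunit, Tnnt2, the cardiac troponin T of immature muscle, and Actc1, cardiac alpha-actin. In myocyte-like cells Chrna1 stood at 1093, 1102 and 988 CPM, Tnnt2 at 1759.8, 1521 and 1391 and Actc1 at 1930.4, 1794 and 995. Actc1 was lowest in old rMETRNL. In myocyte-like cells alone the medians of the list were -0.0887 for age and -0.14 for treatment, and of 12 measured fast fibre partners none was called in either comparison (medians 0.0543 and -0.0546), unlike Myh1.

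Of 8 measured slow fibre partners, Myl3 was called higher and Casq2 lower in old PBS (median -0.53), and Myl3 and Myoz2 lower with treatment (median -0.25). Tnnt1, Tpm3 and Atp2a2 led it, and Tnnt1, the slow troponin T, stood at 1201, 988 and 632 CPM in myocyte-like cells although Myh7 was almost absent. Of 12 myogenic regulators and fusion genes, Myf6 and Mef2c were called higher (all genes 3.91%) and Mymk and Mymx lower (all genes 1.3%) in old PBS (median -0.29), and Myf6 and Mef2c lower with treatment (median 0.11). Myog, Mef2a and Myod1 led it, with Myog at 2957, 2893 and 2196 CPM in myocyte-like cells. None of the 3 myosin folding genes (Hsp90aa1, Smyd1 and Unc45b) was called in either comparison (medians -0.25 and -0.28). Unc45b, the chaperone of the myosin head, stood at 139, 123 and 154 CPM in myocyte-like cells. Of 8 other myosin heavy chains, only the non-muscle genes Myh9 and Myh10 were measured, and Myh10 was called lower in old PBS (medians -0.59 and 0.53). Myh14 came next by UMIs, with 43 in all.

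The genes most like each chain were ranked by Pearson r of log2(CPM + 1) over 75 sums of a cluster in 1 library, which share libraries and differ in depth, so r is a description. For Myh3 they were Mymx (r = 0.89), Tnnt2 (r = 0.89) and Tnni1 (r = 0.86), with Mymx the fusion peptide myomixer. For Myh8 they were Actc1 (r = 0.89), Lmod2 (r = 0.87) and Mybph (r = 0.86). For Myh1 they were Acta1 (r = 0.93), Hspb3 (r = 0.92) and Pgam2 (r = 0.91), and for Myh4 Ckm (r = 0.94), Ankrd23 (r = 0.92) and Pvalb (r = 0.91). Myh2 gave Myl3 (r = 0.92), Perm1 (r = 0.83) and Gm44386 (r = 0.74). Myh7, with its 27 UMIs, gave Lad1 (r = 0.59), Asprv1 (r = 0.54) and Fam129c (r = 0.53), weak values in sparse counts. Among the members, r was 0.83 for Myh3 and Myh8 and 0.79 for Myh1 and Myh4.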

How the data were processed

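Muscle of 3 groups was measured by droplet single-cell RNA sequencing, 1 library per group. The deposited counts are raw UMI counts per gene and barcode, which the authors made with Cell Ranger (5.0.0 in the file headers; the submitters' processing notes name 5.0.0 and 3.1.0, and build mm10, which is GRCm38), and the study's methods name another version. The annotation release and the treatment of reads with several places are not given in the sources used here. Multi-place reads could lower the counts of near-identical chains.

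A barcode was kept when it had 500 genes or more and its mitochondrial UMIs were under 10%. Doublet scores were made per library with scanpy 1.11.5. The automatic threshold called 0 barcodes, so the highest scores were removed, 0.8% per 1000 barcodes. Cells were clustered on 2000 variable genes without the 6 heavy chains (30 principal components, 20 neighbours, Leiden resolution 0.8, leidenalg 0.10.2) and named from markers that hold none of them. The conditions for naming were set after the cluster tables had been seen. Counts were summed per class and library. Levels have exact Poisson, shares exact binomial (Clopper-Pearson) and ratios exact conditional 95% intervals (scipy 1.17.1). A level of 0 is given with the limit that 3 counts allow, and a count of 0.5 was added before folds were called. The summing and calling were tested on simulated data.

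The members and lists were chosen with earlier results of these data known. Named are the 6 heavy chains in each class, the 3 genes of each list with the most UMIs, and the 3 genes most like each chain among those with at least 200 UMIs, over sums of at least 30 cells. The rule asked for 50 cells of a class in each library. The myocyte-like and fibre-like classes fall short of it and are given because most heavy chain UMIs lie there, a choice made after the values were seen. Gene positions are from the GENCODE annotation of GRCm38. Old PBS was compared with young PBS (age) and old rMETRNL with old PBS (treatment), and, as an addition made after seeing the data, old rMETRNL with young PBS. Other filters, resolutions, classes and thinning depths were tried.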

Additional observations from a re-analysis of the deposited data

Results flagged for a closer look

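Barcodes removed by the filters held heavy chain UMIs. Among those with under 500 genes (308, 990 and 746), Myh4 stood at 158, 1069 and 329.8 CPM, from 52, 929 and 212 UMIs, and was higher in both old libraries than in young PBS. Myh1 was at 193 CPM in old PBS against 54.8 in young PBS in the same barcodes. Among those with at least 10% mitochondrial UMIs (457, 520 and 480), Myh3 stood at 195, 40.8 and 127 CPM, above the 31.3, 17.1 and 15.5 CPM of kept cells in each library. A single unnamed old PBS barcode held 178 Myh8 UMIs, 57.1% of those in the kept cells of its library.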

How the results depend on the processing

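The ratios of Myh1 and Myh4 in the myogenic cells kept their direction in 9 of 9 alternatives that keep the fibre-like cells or gate by markers, for age and for treatment, those of Myh3 in 8 and 7, of Myh8 in 7 and 9 of 9, and of Myh2 in 8 of 9 and 8 of 8. Without the fibre-like class, Myh1 turned in both comparisons, and Myh4 turned with age to a ratio whose interval holds 1, 0.870 (0.652 to 1.15). A finer resolution of 1.6, keeping the heavy chains in clustering and subtracting the macrophage/monocyte-like level left every share and summed ratio within its counting interval. With a looser filter (200 genes, 25% mitochondrial) the old PBS developmental share was 20.8%, the developmental ratios 0.842 for age and 0.669 for treatment, and the adult treatment ratio 0.190. With a stricter filter (1000 genes, 5% mitochondrial) the shares were 75.9%, 1.08% and 19.2%, the age ratios 0.119 (developmental) and 34.4 (adult) and the treatment ratios 2.56 and 0.118. This filter leaves 146, 184 and 210 of 433, 614 and 507 myogenic cells. Of the myocyte-like cells 30 of 84, 2 of 22 and 21 of 46 were under 5% mitochondrial, and the gene minimum was changed as well. With doublet calls kept the old PBS share was 18.1% and the developmental ratios 0.649 and 0.809. At resolution 0.4 they were 21.9%, 0.873 and 0.629, and the Myh8 age ratio was 1.05. With cells gated by markers in place of clusters the shares were 91.1%, 64.3% and 82.1%, the age ratios 1.06 (developmental), 6.02 (adult), 1.17 (Myh8) and 0 (Myh2), and the developmental treatment ratio 0.517. As a mean over cells the shares were 44.8%, 1.58% and 7.03%, the age ratios 0.273 and 13.8 and the treatment ratios 1.70 and 0.363. With the unnamed sub-clusters counted, an alternative added after seeing the data, the old PBS share was 22.5%, the developmental ratios 0.901 and 0.588 and the adult treatment ratio 0.188. Without the fibre-like class, also added, the shares were 91.1%, 94.2% and 89.4%, the age ratios 0.741 and 0.466 and the treatment ratios 0.755 and 1.46. The thinned share of Myh3-positive cells was 13.6% in young PBS and 7.67% in old rMETRNL at 2000 UMIs, 24.2%, 7.17% and 14.2% without thinning, and 5.35%, 0.992% and 2.19% for at least 2 UMIs. The causes of these moves were not tested. No paired analysis was possible because each group is 1 library and no test was made. The small number of myocyte-like cells in old PBS and of fibre-like barcodes in young PBS limits the values above that draw on them.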

Other observations

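Barcodes called as doublets (1085, 1029 and 1335) held 667, 18 and 27 Myh3 UMIs and 28, 953 and 201 Myh4 UMIs.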
